A study of Danio rerio with 6 samples.

Results

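Photoreceptor fate transcription factors are the 10 genes crx, otx5, neurod1, prdm1a, prdm1b, six7, tbx2b, thrb, nr2e3 and nrl, taken from the table by symbol. Each symbol matched 1 of the 25432 gene records, and all 10 passed the filter on low counts, which kept 20012 genes. RNA was measured in whole zebrafish embryos 72 hours post fertilization (hpf) by poly(A)-selected sequencing. Control morpholino (control-MO) was given to 3 pools and a morpholino against the splicing factor gene wbp11 (wbp11-MO) to 3 others, with 50 embryos pooled for each library. Morpholinos are antisense oligomers that act transiently on their target RNA, in every tissue they reach. The labels give no strain, and translation-blocking and splice-blocking morpholinos are not told apart in them. They call the 3 pools of a group biological replicates. Whole embryos hold many tissues besides the retina, and in them fewer cells of a type and less RNA per cell cannot be told apart.

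Rods and cones arise from dividing retinal progenitors in steps set by a small network of transcription factors. The homeobox factors of the Otx family commit a cell to the photoreceptor lineage and activate its genes, and the basic helix-loop-helix factor Neurod1 accompanies cell cycle exit and maturation. Nrl and Nr2e3 then direct cells to the rod fate, while Six7, Tbx2b and the thyroid hormone receptor Thrb are tied in zebrafish to green-sensitive, ultraviolet-sensitive and red-sensitive cones. The larval zebrafish retina at this age is rich in cones, and the pineal organ holds photoreceptors that use several of the same factors.

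The libraries held between 11219706 and 13669995 counts. The targeted gene wbp11 has a pair of records in the table, and its transcript was not reduced in the libraries labelled wbp11-MO. On chromosome 3 it was at 14.9 ± 2.61 CPM (counts scaled to a common library total) with control-MO and 24.7 ± 1.45 with wbp11-MO. On scaffold KN150013.1 it was at 8.12 ± 1.02 and 10.1 ± 0.74 CPM (SD, n = 3). The chromosome 3 record rose by 0.72 on the log2 scale (edgeR adjusted p = 4.7e-06). For the scaffold record the change was 0.30 (edgeR adjusted p = 0.10). Transcript levels of the target thus leave the labels unchecked, and every direction refers to the libraries as labelled.

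Between the groups, 5 factors fell, 3 rose and 2 did not pass the test. The factors that fell were crx, six7, neurod1, otx5 and thrb, which came down to between 38.5% and 65.4% of the control mean. The repressor genes prdm1a and prdm1b rose to 189% and 168% of the control mean, and nr2e3 passed the threshold narrowly at 125%. The genes tbx2b and nrl stood at 94.2% and 92.2% of the control mean without passing. A call is a Benjamini-Hochberg adjusted p under 0.05 in edgeR's quasi-likelihood test over all 20012 genes.

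These 8 of 10 calls stand against 61.7% of all tested genes called in this comparison. The 5 falls of 10 stand against 31.2% of tested genes that fell, and the 3 rises of 10 against 30.5% that rose, so the share of rises lies near the background. The fall was at least 2-fold in 3 factors, crx, six7 and neurod1, against 14.3% of tested genes, and no factor rose 2-fold, against 5.90%. The groups did not overlap for 7 of the 10 factors, against 65.4% of tested genes. The median log2 fold change was -0.37 over the factors and 0.0013 over all tested genes.

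**Figure D1:**
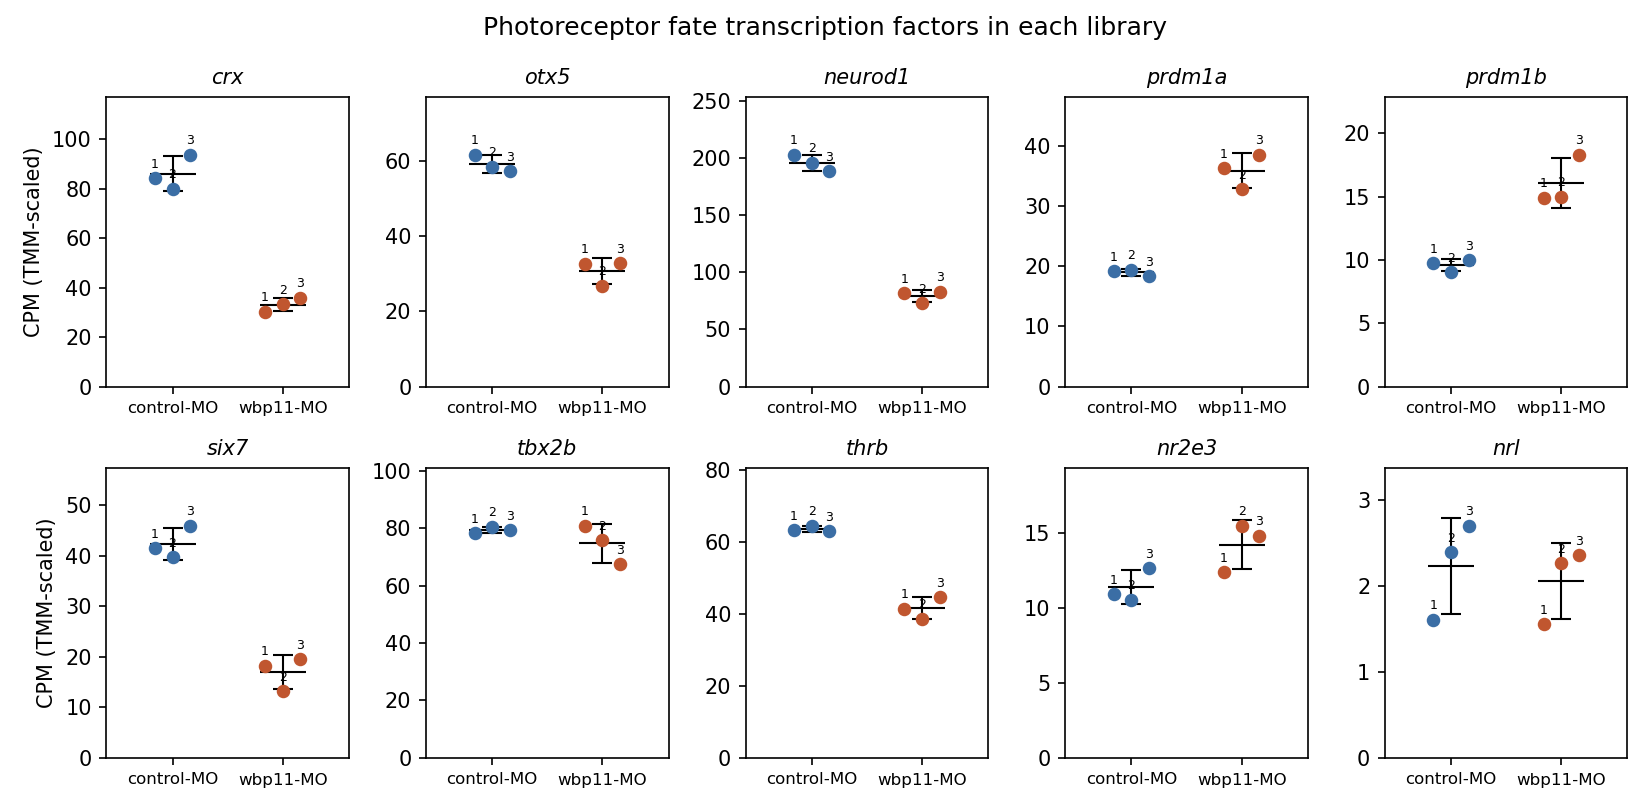
CPM of each factor in every library, on a linear axis from 0. Points are libraries numbered by replicate, bars the mean and SD of 3. The groups are apart for crx, otx5, neurod1, six7, thrb, prdm1a and prdm1b, and overlap for tbx2b, nr2e3 and nrl.

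Among the factors not tied to a photoreceptor subtype, crx, otx5 and neurod1 fell, and prdm1a and prdm1b rose. The gene crx (ENSDARG00000011989, chromosome 5, 36932718 to 36936443, GRCz11, plus strand), a homeobox activator of opsin and phototransduction genes, had 84.2, 80.0 and 93.8 CPM in the control-MO libraries and 30.4, 33.2 and 35.9 in the wbp11-MO libraries. Every wbp11-MO library lay below every control by a wide margin. On the log2 scale the change was -1.38 (SE 0.08, edgeR adjusted p = 4.1e-16), and 9.19% of tested genes had a lower one.

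The gene otx5 (ENSDARG00000043483, chromosome 15, 47903864 to 47909281, plus strand) encodes an Otx-family homeobox factor that acts in the retina and in the zebrafish pineal organ. It had 61.7, 58.5 and 57.2 CPM with control-MO and 32.7, 26.8 and 32.8 CPM with wbp11-MO. The groups were apart, with wbp11-MO replicate 2 the lowest library. This was a log2 change of -0.94 (SE 0.08, edgeR adjusted p = 1.7e-11), smaller in size than that of crx.

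Crx and otx5 were also compared within each library. The ratio of crx to otx5, with counts divided by gene length, was 1.00, 1.00 and 1.202 in the controls and 0.681, 0.908 and 0.803 in the wbp11-MO libraries. All 3 wbp11-MO ratios lay below all 3 controls, a log2 difference of -0.43. The two-sided exact permutation p was 0.10, the smallest that 3 libraries against 3 allow, so this design cannot pass 0.05. Adjusted over the 3 ratios examined, this exact p was 0.20.

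The gene neurod1 (ENSDARG00000019566, chromosome 9, 44291721 to 44295071, minus strand), which also acts in brain neurons and pancreatic endocrine cells, was the most abundant of the 10. It had 202.8, 195.6 and 188.4 CPM with control-MO and 81.5, 72.8 and 82.9 CPM with wbp11-MO. The control libraries differed little from each other, and the groups lay far apart. Its log2 change was -1.31 (SE 0.06, edgeR adjusted p = 2.7e-18).

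The PR domain zinc finger genes prdm1a and prdm1b went the other way. Their mouse relative, Blimp1, holds new photoreceptors back from the bipolar cell fate, and in zebrafish prdm1a is also needed in slow muscle and neural crest. The gene prdm1a (ENSDARG00000002445, chromosome 16, 7430998 to 7443388, minus strand) had 19.2, 19.4 and 18.3 CPM with control-MO and 36.3, 32.8 and 38.5 CPM with wbp11-MO, a log2 change of 0.92 (SE 0.10, edgeR adjusted p = 1.2e-09). The lowest wbp11-MO library lay well above the highest control, and 92.9% of tested genes had a lower fold change.

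The gene prdm1b (ENSDARG00000098925, chromosome 19, 48164242 to 48186224, plus strand) had 9.77, 9.04 and 9.99 CPM with control-MO and 14.9, 15.02 and 18.3 CPM with wbp11-MO. Again the groups did not overlap, with wbp11-MO replicate 3 the highest. Its log2 change was 0.74 (SE 0.14, edgeR adjusted p = 2.7e-05). The length-scaled ratio of prdm1a to prdm1b was 0.890 ± 0.07 in the controls and 1.00 ± 0.08 in the wbp11-MO libraries (SD, n = 3), with overlapping groups (two-sided exact permutation p = 0.20, 0.20 adjusted over the 3 ratios).

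The factors tied to single cone types differed among themselves. The gene six7 (ENSDARG00000070107, chromosome 7, 7401692 to 7420301, minus strand), a homeobox gene that zebrafish need for green-cone opsin expression, had 41.5, 39.7 and 45.9 CPM with control-MO and 18.2, 13.2 and 19.5 CPM with wbp11-MO. The groups were apart, and wbp11-MO replicate 2 was again the lowest. With a log2 change of -1.32 (SE 0.11, edgeR adjusted p = 6.2e-12), six7 came close to crx and neurod1.

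The gene thrb (ENSDARG00000021163, chromosome 19, 17514631 to 17658253, minus strand), which zebrafish need for red cones, had 63.2, 64.5 and 63.1 CPM with control-MO and 41.5, 38.7 and 44.7 CPM with wbp11-MO. The 3 controls were nearly equal, and all lay above the wbp11-MO libraries. The log2 change of -0.61 (SE 0.07, edgeR adjusted p = 1.1e-08) was the smallest of the 5 falls.

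The T-box gene tbx2b (ENSDARG00000006120, chromosome 15, 27364394 to 27371340, plus strand), which in zebrafish favours the ultraviolet cone over the rod fate, had 78.2, 80.4 and 79.3 CPM with control-MO and 80.8, 75.8 and 67.4 CPM with wbp11-MO. The groups overlapped, since wbp11-MO replicate 1 was the highest of all 6 libraries. A log2 change of -0.09 was fitted (SE 0.07, edgeR adjusted p = 0.27), with a 95% interval from -0.22 to 0.05. It is expressed outside the eye as well, so its RNA in a whole embryo has several sources.

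Neither rod factor fell by the test. The nuclear receptor gene nr2e3 (ENSDARG00000045904, chromosome 25, 22274642 to 22278655, plus strand), which in mammals represses cone genes in rods, had 10.9, 10.6 and 12.7 CPM with control-MO and 12.4, 15.5 and 14.8 CPM with wbp11-MO. The groups overlapped, because control-MO replicate 3 exceeded wbp11-MO replicate 1. The fitted log2 change was 0.32 (SE 0.14, edgeR adjusted p = 0.048, with 0.023 to 0.18 over 14 alternatives). Its call was lost in 10 of the 14 alternatives, among them those that left out control-MO replicate 1 or 2 (edgeR adjusted p = 0.13 each) or wbp11-MO replicate 2 or 3 (0.18 and 0.13 by the same test).

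The basic leucine zipper gene nrl (ENSDARG00000100466, chromosome 20, 661037 to 673579, plus strand), the rod-determining factor in mouse, was the least abundant. It had 22, 28 and 37 counts in the control-MO libraries and 21, 28 and 29 in the wbp11-MO libraries, with the groups overlapping almost fully. The fitted log2 change was -0.12 (SE 0.33, edgeR adjusted p = 0.77), and its 95% interval ran from -0.80 to 0.56. Changes within that interval remain compatible with these low counts, and falls as large as those of crx, six7 and neurod1 lay outside it. The length-scaled ratio of nrl to nr2e3 was 0.276 ± 0.06 in the controls and 0.203 ± 0.02 in the wbp11-MO libraries (SD, n = 3, two-sided exact permutation p = 0.20, 0.20 adjusted over the 3 ratios).

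**Figure D2:**
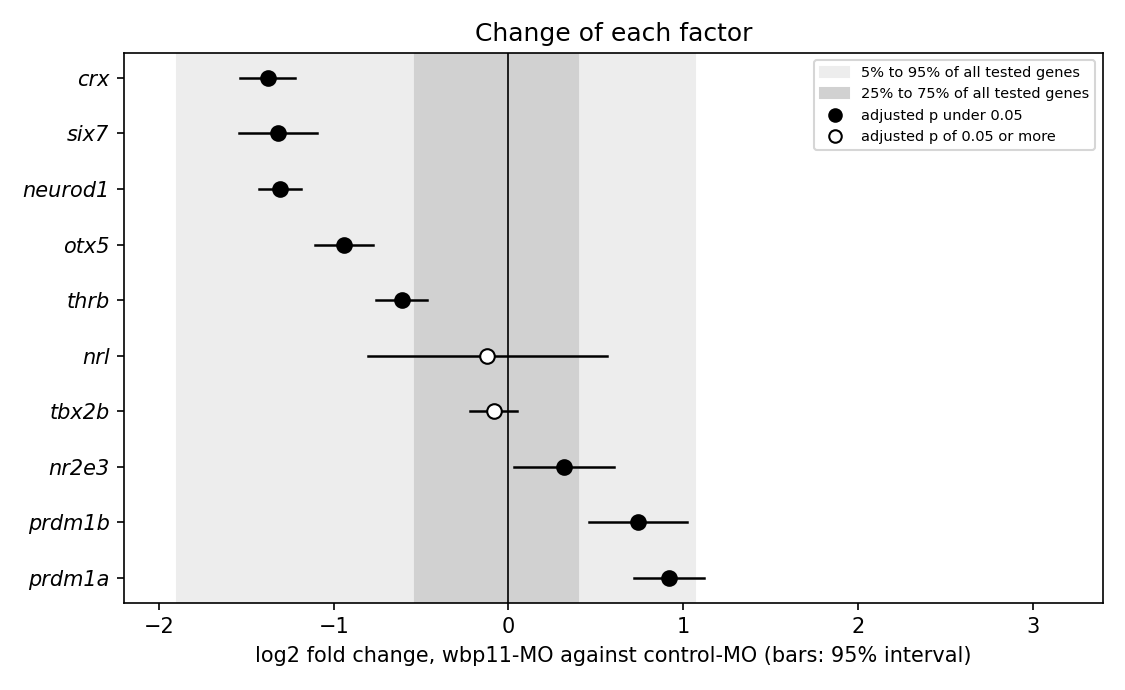
log2 fold change of each factor with its 95% interval, over bands that hold the middle 50% and 90% of all 20012 tested genes. All 10 factors lie within the wider band, from -1.38 for crx to 0.92 for prdm1a, and open circles mark nrl and tbx2b, which did not pass the test.

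Levels can be ordered between genes only per length, for which the deposited FPKM (fragments scaled to gene length and library total) were used. In the controls neurod1 was highest at 82.8 ± 3.3 FPKM, followed by crx at 37.0 ± 2.62, otx5 at 34.7 ± 1.31 and tbx2b at 31.1 ± 0.95 (SD, n = 3). Next came six7 at 10.6 ± 0.68 and thrb at 10.4 ± 0.31 FPKM, then prdm1b at 5.93 ± 0.21, nr2e3 at 5.63 ± 0.50 and prdm1a at 5.26 ± 0.24, with nrl last at 1.56 ± 0.40 FPKM. The ranges of crx and otx5, of six7 and thrb, of prdm1b and nr2e3 and of nr2e3 and prdm1a overlapped, so these neighbours are not ordered.

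The order differed in the wbp11-MO libraries. There neurod1 stood at 31.8 ± 2.39 and tbx2b at 27.8 ± 2.87 FPKM, with overlapping ranges, and otx5 at 17.2 ± 2.03 FPKM lay above crx at 13.5 ± 0.95 (SD, n = 3). The repressor genes prdm1a and prdm1b reached 9.46 ± 0.78 and 9.45 ± 1.06 FPKM and overlapped. Below them were nr2e3 at 6.69 ± 0.68, thrb at 6.47 ± 0.46, six7 at 4.05 ± 0.80 and nrl at 1.36 ± 0.27 FPKM, of which nr2e3 and thrb overlapped. In the controls six7 lay above prdm1a and prdm1b, and in the wbp11-MO libraries below both, with separate ranges in each group.

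**Figure D3:**
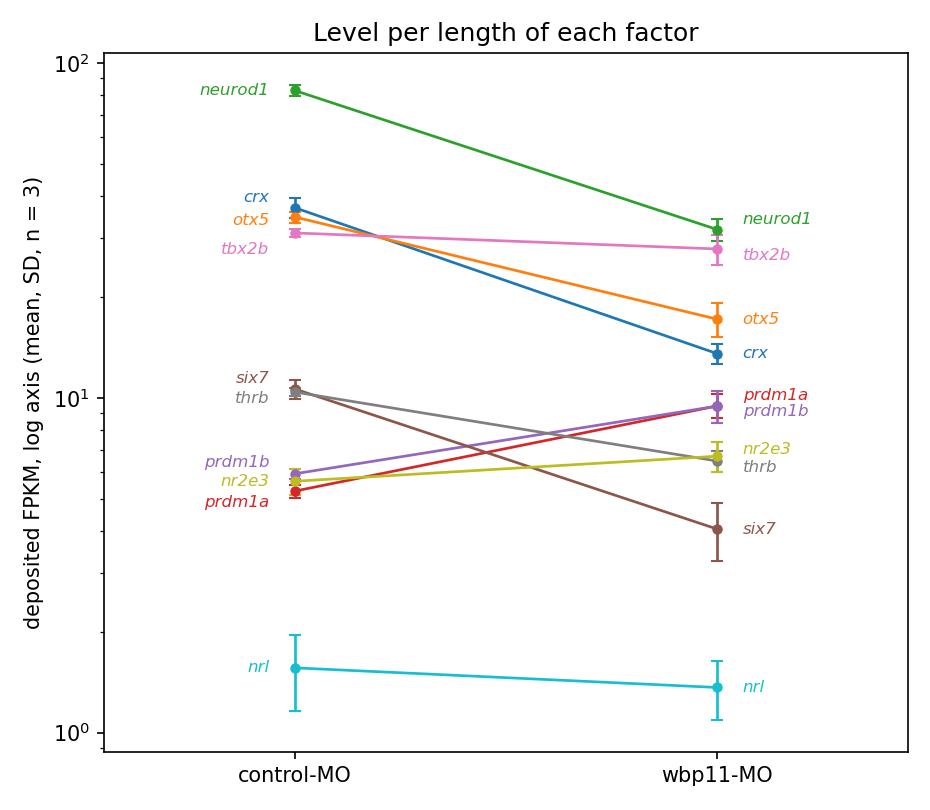
Deposited FPKM of each factor in both groups on a log axis, as mean and SD of 3 libraries. The lines of six7 and thrb cross those of prdm1a and prdm1b, and tbx2b, which the test did not call, stands above crx and otx5 with wbp11-MO.

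The opsin genes paired here with the subtype factors all fell, also where the paired factor, as with tbx2b, nr2e3 and nrl, did not fall by the test. The opsins were chosen for their pairing with the factors after their values were seen, so these values are a description. RNA of a factor can come from other cells of a whole embryo, so opsin counts per factor count are not values per photoreceptor. The red cone opsin gene opn1lw2 (chromosome 11, 25481046 to 25483206) had 731.1, 737.9 and 837.2 CPM with control-MO and 24.2, 10.98 and 16.1 CPM with wbp11-MO, and the counts of opn1lw2 per count of thrb were 29.6-fold lower. The rod opsin gene rho had 605.8, 509.0 and 632.5 CPM with control-MO and 26.4, 13.4 and 17.9 CPM with wbp11-MO, and per count of nr2e3 it was 36.6-fold lower. In every wbp11-MO library both opsins lay far below the lowest control.

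The same held for the other pairs. Per count of six7, the green opsin gene opn1mw1 was 77.8-fold lower and the blue opsin gene opn1sw2 47.2-fold lower. The ultraviolet opsin gene opn1sw1 was 122-fold lower per count of tbx2b. In CPM alone, opn1mw1, opn1sw2 and opn1sw1 were 196-fold, 112-fold and 128-fold lower. With wbp11-MO, opn1mw1 had only 55, 23 and 17 counts and opn1sw2 only 55, 10 and 31, so the sizes of their falls are uncertain. Per count of nrl, rho was 27.0-fold lower, going from 275 ± 89.4 to 10.2 ± 5.97 (SD, n = 3). That ratio rests on only 21 to 37 nrl counts per library. For each of these 6 pairs the ratios of the groups did not overlap. The highest opsin value among the wbp11-MO libraries was in replicate 1 for all 5 opsins, while no factor was highest there except tbx2b. Tandem opsin genes resemble each other closely, and how reads were split among them is uncertain.

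**Figure D4:**
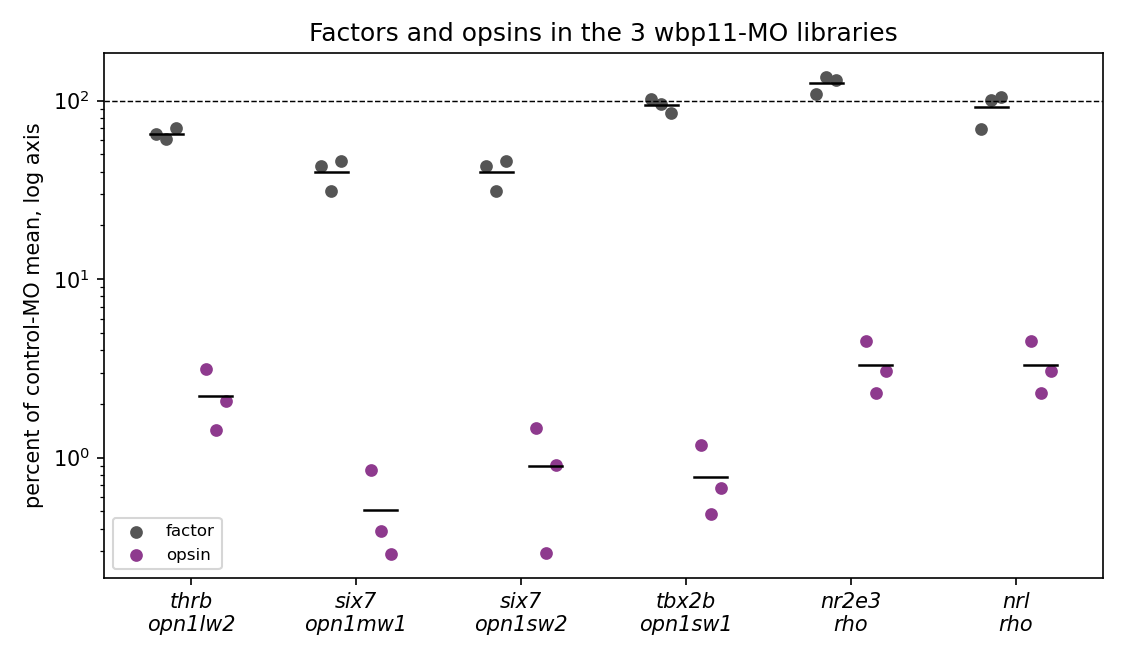
Each factor and its paired opsin in the 3 wbp11-MO libraries, as a percentage of the control-MO mean on a log axis. Points are libraries, short lines their means and the dashed line 100%. Mean factor values lie between 40.1% and 125% of the control mean, and every opsin point lies below 5% of it.

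Genes of photoreceptor function fell in most cases. Of 32 cone phototransduction genes tested, 30 fell and 0 rose, with a median log2 fold change of -4.74 against 0.0013 over all genes. The transducin genes gnb3b and gnat2 fell by 6.51 and 5.43 on the log2 scale. Summed over the list, cone genes stood at 5250 ± 296 CPM with control-MO and 157 ± 30.9 CPM with wbp11-MO (SD, n = 3), and the sum per count of crx went from 61.2 ± 1.55 to 4.77 ± 1.25.

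Rod phototransduction genes fell in 21 of 22 tested and rose in 0, with a median log2 fold change of -3.26. Here rho and the rod arrestin gene sagb fell by 4.91 and 2.74. Summed over the whole list, rod genes stood at 1560 ± 114 CPM with control-MO and 587 ± 11.9 CPM with wbp11-MO, and the sum per count of crx was nearly level, at 18.2 ± 0.92 and 17.8 ± 1.204 (SD, n = 3). Without gnb1a and gnb1b, which many tissues express and which were set aside after their values were seen, the summed level went from 985 ± 88.4 to 76.2 ± 11.2 CPM, and the sum per count of crx from 11.5 ± 0.52 to 2.32 ± 0.45 (SD, n = 3). All 29 tested genes of outer segment and synapse structure fell, with a median of -3.17, among them prph2a, which shapes the disc rim, by 5.67 and rbp3, a retinoid carrier of the matrix, by 5.09. For crx, the factor with the lowest fold change, -1.38, the size of the change was below the median of each of these 3 lists.

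Other regulators of photoreceptor subtype went both ways. Of 40 tested, 19 fell and 11 rose, with a median of -0.17. That is 47.5% and 27.5%, where 31.2% of all tested genes fell and 30.5% rose. The orphan receptor genes rorab and roraa fell from 116.8 ± 1.93 and 75.1 ± 1.89 CPM to 43.2 ± 3.71 and 30.9 ± 3.29 CPM, log2 fold changes of -1.43 and -1.28. The gene cyp27c1, whose enzyme makes the chromophore of red-shifted vision, rose from 9.96 ± 1.38 to 41.4 ± 3.43 CPM. It counts among the 11 rises of this list but is an enzyme gene, not a regulator of photoreceptor subtype. The orphan receptor gene nr2f5 rose by 1.06 on the log2 scale. Outside the naming rule and chosen after its values were seen, foxq2, which zebrafish need for blue cone opsin expression, fell by 1.12 (SE 0.33, edgeR adjusted p = 0.0041).

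Upstream genes of the eye field and of retinal progenitors showed no common direction. Of 38 tested, 14 rose and 11 fell, with a median of -0.0083. These shares, 36.8% and 28.9%, lie near the 30.5% and 31.2% of all tested genes that rose and fell. The receptor gene notch1a, which keeps progenitors undifferentiated, rose by 2.03 on the log2 scale, and ccnd1, a cyclin gene of dividing cells, by 1.11. The homeobox genes vsx1, which also marks bipolar cells, and rx1 fell by 0.97 and 0.93. These genes act in brain as well as in retina.

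Family relatives of the factors were taken by symbol. Of 49 tested, 15 rose and 16 fell, which is 30.6% and 32.7% where all tested genes gave 30.5% and 31.2%, and the median was -0.03. None of the 3 Otx relatives fell, and otx2b, which acts in eye and forebrain, had 63.4 ± 1.13 CPM with control-MO and 62.8 ± 4.68 CPM with wbp11-MO (SD, n = 3, edgeR adjusted p = 0.87), while otx2a rose by 1.00. Among 4 Neurod relatives 3 fell and 1 rose, with neurod6a falling by 2.34, neurod2 by 2.45 and neurod4 rising by 0.27. Among 12 Prdm relatives 7 rose and 2 fell, with prdm8 and prdm9 rising by 1.38 and 0.76 and prdm8b falling by 1.22. The receptor gene thrab fell by 1.07, and thraa had a log2 fold change of -0.04 (edgeR adjusted p = 0.84). The tbx2b copy tbx2a had one of -0.23 ± 0.09 (SE, edgeR adjusted p = 0.022). Of these relatives, otx2b, otx2a, neurod2, neurod4, thrab, thraa and tbx2a were named after their values were seen.

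**Figure D5:**
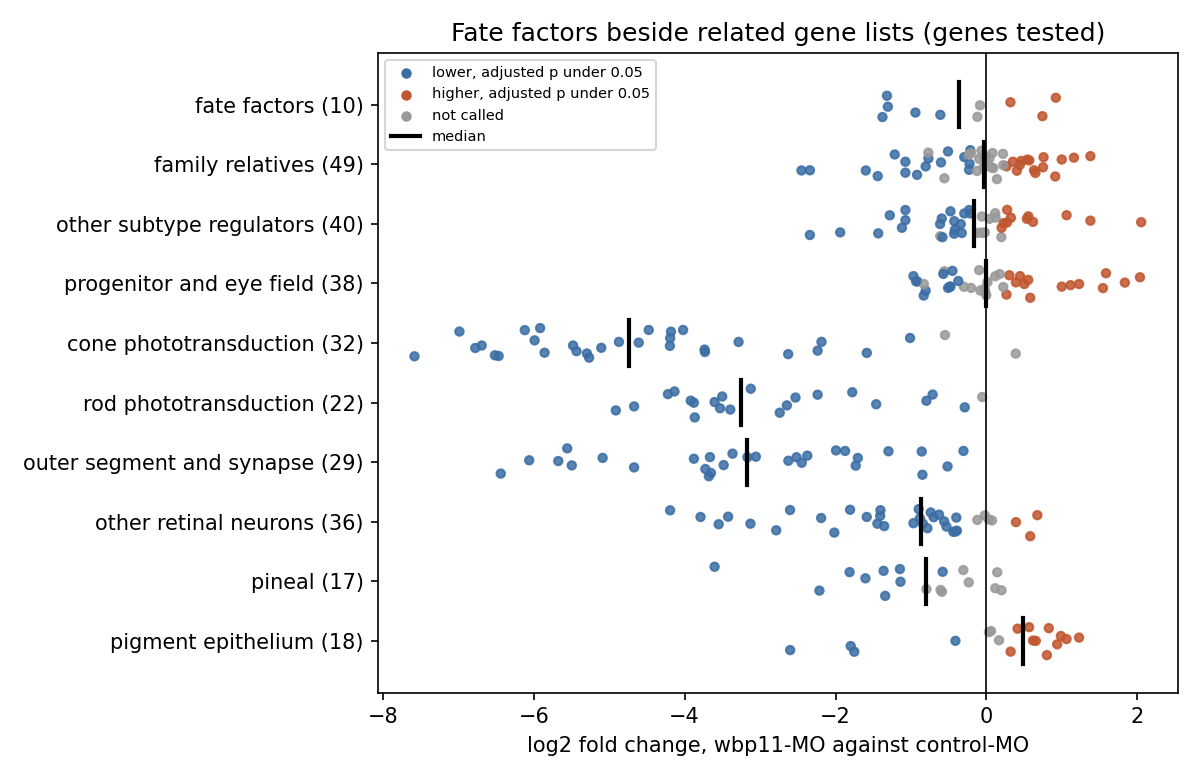
log2 fold change of every tested gene in the fate factors and in related lists, with the number tested in brackets, coloured by call, and the median as a black bar. The median lies at -0.37 for the factors and at -4.74, -3.26 and -3.17 for cone, rod and outer segment genes, and near 0 for relatives and progenitor genes.

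Markers of other retinal neurons and of the pineal organ fell more often than tested genes as a whole, of which 31.2% fell and 30.5% rose. Of 36 markers of retinal ganglion, bipolar, amacrine and horizontal cells, 29 fell and 3 rose (median -0.86), and their summed level ran from 2089 to 2153 CPM with control-MO and from 1176 to 1241 CPM with wbp11-MO. Here calb2a and gad1b fell by 2.60 and 1.81, and lhx1b and onecut1 rose by 0.67 and 0.58. Brain neurons express some of these markers too, calb2a and gad1b among them, so the sums are not those of the retina alone. Of 17 pineal markers, 9 fell and 0 rose (median -0.80), with sums of 145 to 155 CPM against 80.2 to 85.7 CPM. The rod-type transducin gene gngt1, which is on the rod list too, and the melanopsin gene opn4.1 fell by 3.60 and 2.21. In mean CPM, gngt1 went from 34.0 to 2.80 and opn4.1 from 28.1 to 6.06. This was much of the fall of the mean pineal sum, from 151 to 83.4 CPM. The part of these markers in the falls of crx and otx5 was not tested.

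For neurod1, 19 endocrine pancreas markers were tested, of which 7 fell and 5 rose (median -0.17). These shares, 36.8% and 26.3%, lie near the 31.2% and 30.5% of all tested genes that fell and rose. The sums were 413 to 427 CPM with control-MO and 371 to 404 CPM with wbp11-MO. The secretory granule genes pcsk2 and scg3 fell by 1.34 and 0.90, and insm1a and nkx6.1 rose by 0.55 and 0.64. Of these, insm1a is on the progenitor list too. Mean scg3 went from 91.4 to 48.7 CPM, a larger fall than that of the mean endocrine sum, from 420 to 389 CPM. For prdm1a, 20 slow muscle markers were tested, of which 12 fell and 6 rose (median -0.26). That is 60% and 30%, of which only the rises lie near the share of all tested genes. Yet the summed level was higher, 3277 to 3450 CPM with wbp11-MO against 2920.2 to 3049 CPM with control-MO. The slow myosin genes smyhc1 and myh7l rose by 0.76 and 0.68, and mybpc1 and tnni1d fell by 2.62 each. Alone, smyhc1 went from 643 ± 64.7 CPM with control-MO to 1092 ± 7.59 CPM with wbp11-MO (SD, n = 3). That rise was larger than the rise of the mean sum, from 2977 to 3390 CPM. Of 24 neural crest and sensory neuron markers, 8 rose and 8 fell (median 0.06), which is 33.3% each way and near the shares of all tested genes. Their sums were 1358 to 1430.1 CPM with control-MO and 1171 to 1244 CPM with wbp11-MO. Here snai2 and neurog1 rose by 0.64 and 1.58 while ntrk3a and elavl4 fell by 1.56 and 0.98. Mean elavl4 went from 461 CPM with control-MO to 233 CPM with wbp11-MO. This fall was larger than that of the mean neural crest and sensory neuron sum, from 1398 to 1207 CPM. No marker of these 3 lists was without counts in a group, and their part in the changes of neurod1, prdm1a and prdm1b was not tested.

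For thrb, 16 genes of the thyroid hormone axis were tested, of which 6 fell and 2 rose (median -0.41). That is 37.5% and 12.5%, where 31.2% of all tested genes fell and 30.5% rose, so the share of falls lies near the background. The sums were 209 to 232 CPM with control-MO and 151 to 155 CPM with wbp11-MO. The hormone-induced gene klf9 fell from 29.6 ± 2.81 to 3.78 ± 0.67 CPM. The transporter gene slc16a10 fell from 53.3 ± 2.18 to 29.0 ± 3.52 CPM, by 0.88 on the log2 scale. Together klf9 and slc16a10 made up much of the fall of the mean sum, from 219 to 154 CPM. On the log2 scale pax8 and pax2a rose by 0.65 and 0.20. The thyroglobulin gene tg, chosen after its values were seen, fell by 1.25. The gene thrsp was without counts in every library.

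Each list of other cells of the eye held falls and rises, in unlike shares, where 31.2% of all tested genes fell and 30.5% rose. Of 18 pigment epithelium markers, 11 rose and 4 fell (median 0.49), which is 61.1% and 22.2%. Among these, pmela and dct, which skin pigment cells express too, rose by 0.94 and 1.06. The visual cycle genes rpe65a and rgra fell by 2.60 and 1.75. Of 16 Müller glia markers, 8 fell and 5 rose (median -0.19), which is 50% and 31.25%, the rises near the share of all tested genes. Among them slc1a2a fell by 5.94, the largest fall of the list, and slc1a2b by 1.08, and slc1a3a and apoeb rose by 1.09 and 0.84. Which cells of the embryo held the slc1a2a RNA was not tested. Of 26 lens markers, 13 fell and 2 rose (median -0.24), which is 50% and 7.69%. In this list crygm2d11 and cryaa fell by 3.15 and 0.95, and cx23 and lim2.1 rose by 0.98 and 0.33. These lists differ in members and abundance, and differences between lists were not tested.

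The surroundings of the factors in the genome were read from the coordinates in the table. Only thrb overlapped another record, CR382334.1 on the opposite strand, which had 0.0972 ± 0.08 CPM with control-MO and 0.159 ± 0.08 CPM with wbp11-MO (SD, n = 3), against 63.6 and 41.6 CPM for thrb. Of the 20 genes that flank the 10 factors, 3 rose, 7 fell and 10 did not pass the test, where 30.5% of all tested genes rose and 31.2% fell. The gene zgc:101810, 3342 bases from six7 on the same strand, rose by 1.07 on the log2 scale while six7 fell. The gene cerkl, 2085 bases from neurod1, had 2.98 ± 0.33 CPM with control-MO and 2.30 ± 0.37 CPM with wbp11-MO (SD, n = 3, edgeR adjusted p = 0.27).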

How the data were processed

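Poly(A) RNA was selected on oligo(dT) beads before sequencing, per the labels' protocols. HTSeq 2.0.5, FastQC 0.12.1 and the build GRCz11 are named in the submitters' processing notes. For the aligner and strand setting, not given in the sources used here, no check was possible. The deposited table gives raw read counts and FPKM per gene, per the file headers. The deposited FPKM equal count over gene length and library total, to a largest relative difference of 5.13e-15.

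Counts were tested in edgeR 4.0.16 (R 4.3.3) with filterByExpr, TMM factors and quasi-likelihood F-tests (no block for replicates), adjusted over 20012 genes. CPM use the TMM-scaled totals. SE were derived from F and the log2 change. Ratios between factors were compared with exact permutation tests.

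The members and the 16 context lists, relatives included, were chosen with earlier results of these data known. Lists were matched by symbol, without the members, and 24 listed symbols had no match. Besides the 10 factors, up to 2 called genes per list and direction with the smallest p are named. Some genes are on several lists. Alternatives were DESeq2 1.42.0, limma-voom (limma 3.58.1), upper-quartile or RLE factors, filters at 1 count in any library or at CPM 1 in 3 libraries, each library left out and a replicate block, and for ratios 0.5 added to each count. Library totals without TMM factors were added after seeing the data.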

Additional observations from a re-analysis of the deposited data

How the results depend on the processing

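Over 14 alternatives, crx, otx5, neurod1, six7, thrb, prdm1a and prdm1b kept direction and call, with log2 fold changes of -1.45 to -1.31, -1.01 to -0.85, -1.38 to -1.25, -1.43 to -1.17, -0.68 to -0.56, 0.85 to 0.98 and 0.63 to 0.79. The genes tbx2b and nrl stayed uncalled, and nrl changed sign when control-MO replicate 3 (0.047) or wbp11-MO replicate 1 (0.044) was left out, with -0.32 to 0.047 over the left-out libraries. The cause was not tested. The call of nr2e3 was lost in 10 alternatives. In every alternative 5 factors fell, while 2 rose in the 10 without the nr2e3 call and 3 in the others. The number of genes called ran from 11475 to 12720, and with library totals in place of TMM factors 5243 rose and 6897 fell. Library totals without TMM factors moved the median of all genes by the most, to -0.07. With those totals 14 progenitor genes rose and 15 fell, 13 relatives rose and 18 fell, and 7 neural crest and sensory neuron markers rose and 8 fell. The log2 differences of the ratios kept their direction in all 8 alternatives each, from 0.12 to 0.24 for prdm1a to prdm1b, -0.53 to -0.32 for crx to otx5 and -0.62 to -0.31 for nrl to nr2e3. Deviations of same-numbered libraries had correlations of -0.02, -0.04 and 0.01. Such correlations cannot show whether same-numbered pools were handled together. With the replicate block nr2e3 had a log2 fold change of 0.32 (edgeR adjusted p = 0.056). The paired ratio differences equal the unpaired ones, -0.43 for crx to otx5, with an exact sign-flip p of 0.25, the smallest that 3 pairs allow.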

Other observations

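Genes of a list of helix-loop-helix factors, the wider class of neurod1, went both ways. Of 28 tested without neurod1, 14 rose and 9 fell, which is 50% and 32.1% where all tested genes gave 30.5% and 31.2%, with a median log2 fold change of 0.28 against 0.0013 over all genes. The genes neurog1 and olig3, which act in early neural progenitors, rose by 1.58 (SE 0.13) and 1.48 (SE 0.16) on the log2 scale. The genes neurod6a and id2a, of which id2a is not a proneural gene, fell by 2.34 and 0.88. The gene atoh7, which starts retinal ganglion cell formation and is named here because of its value, had a log2 change of 1.54 (SE 0.22, edgeR adjusted p = 3.3e-07) and rose in this test.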
